A study of Mus musculus with 3 samples.

Results

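The genes described here are the TNF superfamily ligands, their receptors and the TRAF adaptors: a list of 38 genes with 16 ligands, 18 receptors and 4 TRAF genes. Each was read from the probe set whose platform annotation gives only that gene's symbol. A probe set of this kind was used for 36 of the 38, of 19935 genes measured in this way. Every one of the 36 had just 1 such probe set. Tnfsf12 shares its probe set with other genes and Traf3 was not analysed here, so neither has a value. The RNA came from cultures of naive CD4+ T cells of wild type C57BL/6 mice at 8 weeks of age. Naive, a term for helper T cells that have not yet met antigen, describes the cells before culture. One culture received vehicle in medium, one IL-21, and one IL-6 together with TGFb1, the pair of cytokines commonly used to obtain Th17 cells. The labels give no culture time, no cytokine dose, no other stimulus and no number of animals, and there was 1 array for each culture. Without replicates no difference has an error or a test, and each value below compares one array with another.

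TNF superfamily ligands are trimeric proteins, mostly on the cell surface, which cluster their receptors on the same or a neighbouring cell. Some receptors carry a death domain, through which they can recruit caspase-8, and many bind TRAF proteins that activate NF-kB and MAP kinases. In CD4+ T cells the family is known for costimulation through OX40, GITR, CD27, CD30 and CD137, for help to B cells through CD40 ligand, and for cell death through Fas.

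The values are probe set intensities on a linear scale as the authors deposited them. Array medians were 191 with medium, 182 with IL-21 and 188 under IL-6 with TGFb1. A gene was compared where its highest intensity reached 187, the median of all values, which 11003 of 19935 genes did. Of the TNF superfamily and TRAF genes, 28 passed: 9 of 15 measured ligands, 16 of 18 receptors and all 3 measured TRAF genes. All 28 were at or above 187 on every array, so none entered through 1 culture alone. Differences are log2(intensity + 1) of one array minus another, so that 1 means 2-fold. Many probe sets, 2908 of 28815, had exactly equal deposited values on all 3 arrays, so their differences are 0. The origin of these ties is not known, as the authors' processing steps are not given. For scale, in the 455 genes with 2 bright probe sets, the gap between both differences had a 95th percentile of 0.40 for IL-21 minus medium. It was 0.37 for IL-6 with TGFb1 minus medium and 0.34 between the treated cultures. That gap reflects probe set error on the same arrays and not variation between cultures.

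The cell type was checked against marker genes. All 7 measured T cell markers passed the brightness filter, with summed intensities of 32967 with medium, 32626 with IL-21 and 30931 under IL-6 with TGFb1. Of these Cd4 had 6858, 6765 and 6077 in the same order. The members of the list did not all move alike. Trat1, which encodes an adaptor of the T cell receptor complex, had 2803, 1560 and 665, or -0.84 and -2.07 against medium, and the costimulatory receptor gene Cd28 had 3945, 5248 and 5630, or 0.41 and 0.51. The other 5 lay between -0.29 (Thy1) and 0.16 (Cd3d) against medium. Of the B cell markers 1 of 5 measured passed, Cd79b, and the summed intensity of the 5 ran from 846 to 866. Of 8 macrophage and dendritic cell markers only Cd68 passed, with sums from 867 to 873. Among the CD8 T cell markers Cd8b1 passed and Cd8a did not, with sums of 973, 876 and 772. The NK cell list had sums of 2533, 2610 and 1527, which followed Nkg7 (2259, 2291 and 1126), its 1 gene above the filter. The 4 below it did not follow that order: Klrd1 was highest under IL-6 with TGFb1, with 66.0, 98.1 and 173, as was Klrk1, with 88.4, 103 and 107, while Ncr1 and Klrb1c were nearly level. No marker was at 0, since the lowest deposited intensity of any probe set was 25.5. In RNA of whole cultures, fewer cells with a transcript and less of it per cell cannot be told apart.

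**Figure D1:**
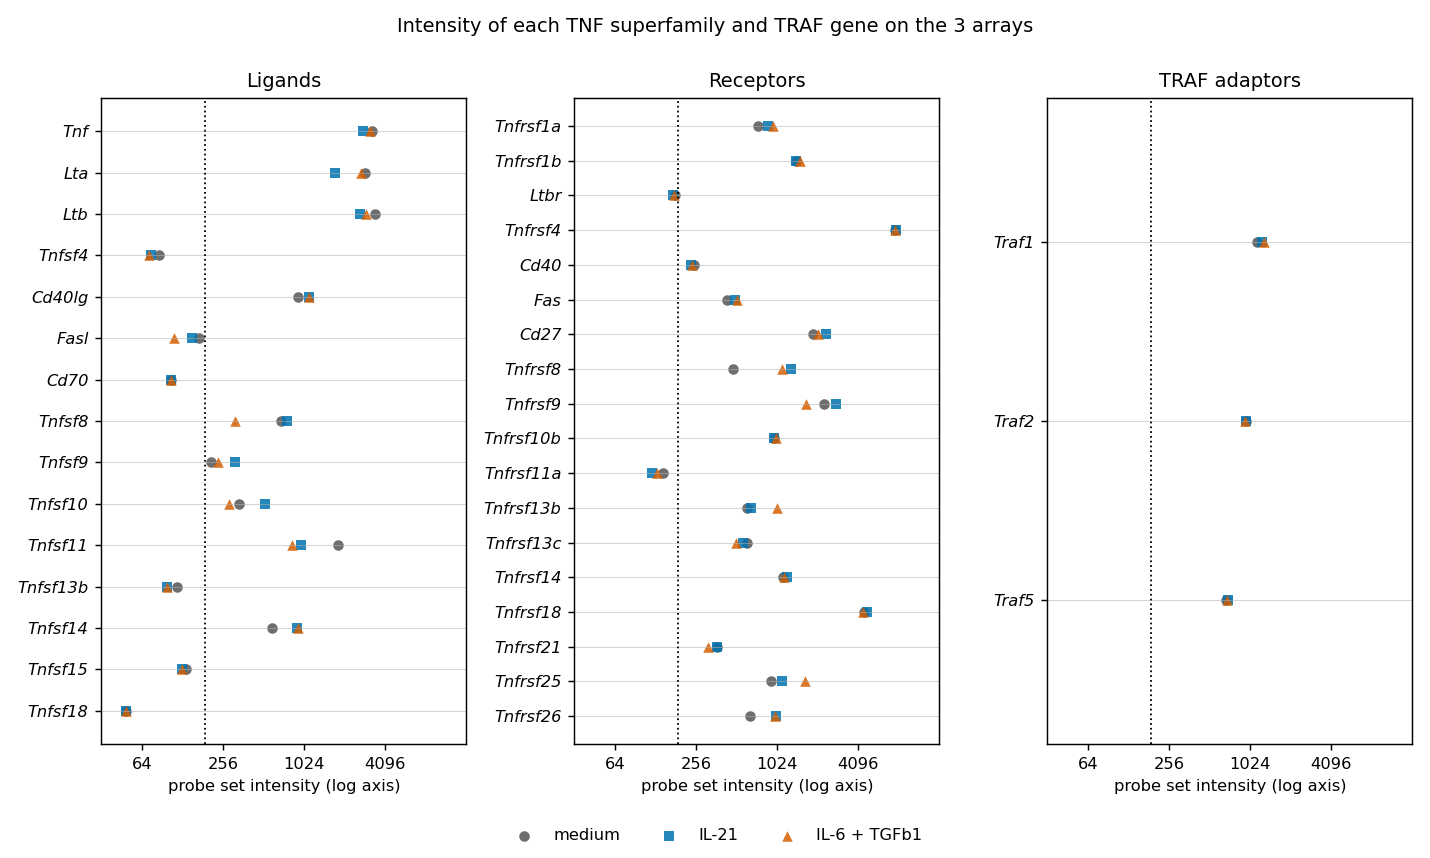
Probe set intensity (log axis) of the 36 measured genes on the medium, IL-21, and IL-6 with TGFb1 arrays, 1 symbol per array, with the brightness filter of 187 as a dotted line. Tnfrsf8 lies apart on the medium array at 480, and Tnfsf8 on the IL-6 and TGFb1 array at 314. Positions of different genes are not comparable with each other, because probe sets differ in sensitivity.

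The genes of the family at least 2-fold apart in some comparison were the receptor gene Tnfrsf8 and the ligand genes Tnfsf8 and Tnfsf11. Lta, the ligand gene lowest with IL-21 against IL-6 with TGFb1, is shown with them. The 250 bases before the start of each of these 4 genes follow, 5′ to 3′ on the gene's own strand, from RefSeq with build GRCm38.p6. The windows are chr4:145315165-145315414, chr4:63861285-63861534, chr14:78308044-78308293 and chr17:35205352-35205601, all on the minus strand. Capitals mark matches, on either strand, to 4 motifs: TTCNNNGAA (STAT), TGANTCA (AP-1), GGNNTTTCC (NF-kB) and TATAA (TATA box).
Tnfrsf8: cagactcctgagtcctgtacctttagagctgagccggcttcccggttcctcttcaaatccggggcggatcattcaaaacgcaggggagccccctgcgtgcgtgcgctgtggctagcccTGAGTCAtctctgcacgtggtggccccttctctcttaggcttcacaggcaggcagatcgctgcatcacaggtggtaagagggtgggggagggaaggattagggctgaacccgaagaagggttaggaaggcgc
Tnfsf8: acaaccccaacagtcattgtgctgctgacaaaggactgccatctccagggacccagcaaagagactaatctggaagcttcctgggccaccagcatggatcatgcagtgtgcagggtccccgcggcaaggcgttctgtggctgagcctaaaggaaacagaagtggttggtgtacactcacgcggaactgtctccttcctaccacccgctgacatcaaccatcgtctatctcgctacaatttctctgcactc
Tnfsf11: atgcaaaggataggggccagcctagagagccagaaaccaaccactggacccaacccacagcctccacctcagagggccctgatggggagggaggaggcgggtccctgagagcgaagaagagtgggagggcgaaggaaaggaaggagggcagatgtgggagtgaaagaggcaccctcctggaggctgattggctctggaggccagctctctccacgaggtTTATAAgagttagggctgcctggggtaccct
Lta: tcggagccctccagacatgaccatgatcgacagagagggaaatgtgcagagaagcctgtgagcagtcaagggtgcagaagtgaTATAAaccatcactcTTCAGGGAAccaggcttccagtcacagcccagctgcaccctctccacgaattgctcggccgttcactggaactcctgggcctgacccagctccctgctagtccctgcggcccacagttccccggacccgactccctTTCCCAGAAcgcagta
The window of Tnfrsf8 holds 1 AP-1 match, 132 to 126 bases before the start. The Tnfsf8 window holds none of the 4 motifs. Tnfsf11 has no STAT, AP-1 or NF-kB match but has a TATA match 30 to 26 bases before the start, overlapped by one on the other strand. Lta has STAT matches from 152 to 144 and from 16 to 8 bases before the start, and a TATA match further upstream. Of all 32851 windows of this length, 7.02% hold the STAT motif, 6.75% the AP-1 motif, 4.93% the NF-kB motif and 22.8% the TATA motif. Of the 30 genes of the family with a window, the motifs were found in 8, 5, 5 and 5 genes in that order. These genes have 33 windows, and a gene was counted if any of its windows matched. The counts are thus per gene and the shares per window. A match is a description of letters in the window.

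Among the ligands, 5 of 9 compared genes were at least 0.5 log2 units from medium in the IL-21 culture and 3 of 9 under IL-6 and TGFb1, against 3.83% and 4.87% of all compared genes. Tnfsf11 (Entrez 21943) encodes RANK ligand, which drives osteoclast formation and dendritic cell survival. Its intensity was 1833 with medium, 968 with IL-21 and 836 under IL-6 with TGFb1. Medium was thus the high array and the treated arrays were close to each other. The difference was -0.92 with IL-21 and -1.13 under IL-6 with TGFb1, where it was 2.19-fold lower. Its receptor gene Tnfrsf11a, which encodes RANK, was below the filter on every array, between 122 and 146.

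Tnfsf8 (Entrez 21949) encodes the ligand of CD30. It had intensities of 694 with medium, 769 with IL-21 and 314 under IL-6 with TGFb1. Here IL-6 with TGFb1 was the low array, 2.21-fold below medium (-1.14) and 2.44-fold below IL-21 (1.29 for IL-21 minus IL-6 with TGFb1). With IL-21 the difference from medium was 0.15, inside the probe set gap of 0.40. Of the markers of other cell types, Nkg7 and Cd8b1, which lead the NK cell and CD8 T cell sums, were also lowest on the IL-6 and TGFb1 array, whereas the NK cell markers Klrd1 and Klrk1 were highest there. Their part in this difference was not tested.

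Lta, Tnf and Ltb are neighbours on chromosome 17, with no protein-coding gene between them in the RefSeq order. Lta (Entrez 16992) encodes lymphotoxin alpha, which binds both TNF receptors and forms a surface complex with lymphotoxin beta. Its intensity was 2895 with medium, 1734 with IL-21 and 2717 under IL-6 with TGFb1. IL-21 was the low array, at -0.74 against medium and -0.65 against IL-6 with TGFb1. Tnf, the inflammatory cytokine, had 3276, 2796 and 3161 on the same arrays, a difference of -0.23 with IL-21 and -0.05 under IL-6 with TGFb1. Ltb, which encodes lymphotoxin beta, had 3448, 2676 and 2953, or -0.37 and -0.22. All 3 genes were lowest on the IL-21 array, but only Lta differed by more than the probe set gap.

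Another row of neighbours on that chromosome is Tnfsf9, Cd70 and Tnfsf14. Tnfsf14 (Entrez 50930) encodes LIGHT, which binds HVEM and the lymphotoxin beta receptor. It had 591 with medium, 906 with IL-21 and 928 under IL-6 with TGFb1, differences of 0.62 and 0.65. Both treated arrays were high and differed from each other by -0.03. Tnfsf9, the CD137 ligand gene, had 210, 317 and 235, so that IL-21 was the high array (0.59 against medium). Cd70, which encodes the CD27 ligand, had an equal intensity of 106 on all 3 arrays, below the filter.

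Tnfsf10 encodes TRAIL, a ligand of death receptors. Its intensity was 337 with medium, 526 with IL-21 and 285 under IL-6 with TGFb1. The IL-21 array was high, by 0.64 against medium and by 0.88 against IL-6 with TGFb1, while IL-6 with TGFb1 was at -0.24 against medium. Cd40lg, which encodes the ligand through which helper T cells act on B cells, had 930 with medium and exactly 1117 on both treated arrays, a difference of 0.26.

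In 6 of the 15 measured ligands the intensity did not reach the filter on any array. Of all 19935 measured genes, 11003 reached it. Fasl, the Fas ligand gene, had 171, 150 and 111, Tnfsf4, the OX40 ligand gene, 85.2, 75.3 and 72.8, and Tnfsf13b, which encodes BAFF, 116, 99.0 and 98.7. Tnfsf15, the ligand gene for DR3, lay between 127 and 136, and Tnfsf18, the GITR ligand gene, was equal at 48.8 on all arrays, as Cd70 was. Fasl showed the widest spread of these, with -0.63 for IL-6 with TGFb1 minus medium, from values under the filter on every array.

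Of the receptors, 2 of 16 compared genes were at least 0.5 log2 units from medium in the IL-21 culture and 4 of 16 under IL-6 and TGFb1, all on the higher side, against 3.83% and 4.87% of all compared genes on either side. Tnfrsf8 (Entrez 21941) encodes CD30, a costimulatory receptor of activated lymphocytes. Its intensity was 480 with medium, 1297 with IL-21 and 1112 under IL-6 with TGFb1. Medium was the low array, with IL-21 2.70-fold higher (1.43) and IL-6 with TGFb1 2.31-fold higher (1.21). The treated arrays differed by 0.22, less than the probe set gap of 0.34. Its neighbour on chromosome 4, Tnfrsf1b, which encodes the second TNF receptor, had 1407 with medium, an equal value with IL-21, and 1516 under IL-6 with TGFb1.

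Tnfrsf26, a mouse gene of the receptor family, had 644 with medium, 1002 with IL-21 and 982 under IL-6 with TGFb1. The treated arrays were both high, by 0.64 and 0.61. Tnfrsf25 encodes DR3, the death domain receptor for TL1A that costimulates T cells. It had 925, 1120 and 1648, so that IL-6 with TGFb1 was the high array, by 0.83 against medium, with IL-21 at 0.28. Between the treated cultures the difference was -0.56.

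Tnfrsf13b encodes TACI, a receptor for BAFF and APRIL known mainly from B cells. Its intensity was 617 with medium, 658 with IL-21 and 1020 under IL-6 with TGFb1. Only the IL-6 and TGFb1 array was high, by 0.72 against medium, and the IL-21 array lay 0.63 log2 units below it (-0.63). The BAFF receptor gene Tnfrsf13c went the other way, with 611, 571 and 508 (-0.27 for IL-6 with TGFb1). The summed B cell markers were 846, 866 and 859 in the same order of arrays. Cd79b, which passed the filter, had 365, 371 and 380, and Cd79a, Ms4a1, Pax5 and Cd22 were below it throughout. A part of B cells in the Tnfrsf13b difference was not tested.

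Tnfrsf9 encodes CD137, an activation-induced costimulatory receptor. It had 2269 with medium, 2780 with IL-21 and 1682 under IL-6 with TGFb1. The treated arrays lay on opposite sides of medium, at 0.29 and -0.43, and differed from each other by 0.72. Cd27, a costimulatory receptor of naive and memory T cells, had 1880, 2375 and 2051, with 0.34 for IL-21 minus medium. Tnfrsf1a, the first TNF receptor, had 745, 879 and 954, or 0.24 and 0.36, and Fas, the death receptor, 434, 499 and 516, or 0.20 and 0.25. These last differences were smaller than the probe set gap.

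The costimulatory receptor genes Tnfrsf4 and Tnfrsf18 are neighbours and encode OX40 and GITR. Tnfrsf4 had 7708, 7751 and 7677, and Tnfrsf18 had 4516, 4726 and 4415. Their differences from medium lay between -0.03 and 0.07. Tnfrsf14, which encodes HVEM, had 1124, 1213 and 1159, and Tnfrsf10b, the death receptor for TRAIL, 974, 966 and 1002. Cd40 had 247, 236 and 237. Tnfrsf21, the death receptor 6 gene, was equal at 367 with medium and IL-21 and had 316 with IL-6 and TGFb1 (-0.22). Ltbr, the lymphotoxin beta receptor gene, was just under the filter at 178, 172 and 177, and no receptor gene other than Ltbr and Tnfrsf11a was below it.

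The TRAF genes were nearly level. Traf1, which is itself induced by NF-kB, had 1150 with medium, 1245 with IL-21 and 1288 under IL-6 with TGFb1, differences of 0.11 and 0.16. Traf2, the adaptor that links TNF receptors to NF-kB and JNK, had 954, an equal value with IL-21, and 942. Traf5, an adaptor of CD27, OX40 and CD30, had 680, 703 and 688. All 3 were within 0.25 log2 units in each of the 3 comparisons. So were 80.6%, 80.3% and 91.4% of all compared genes, so this is shared with most genes on these arrays.

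**Figure D2:**
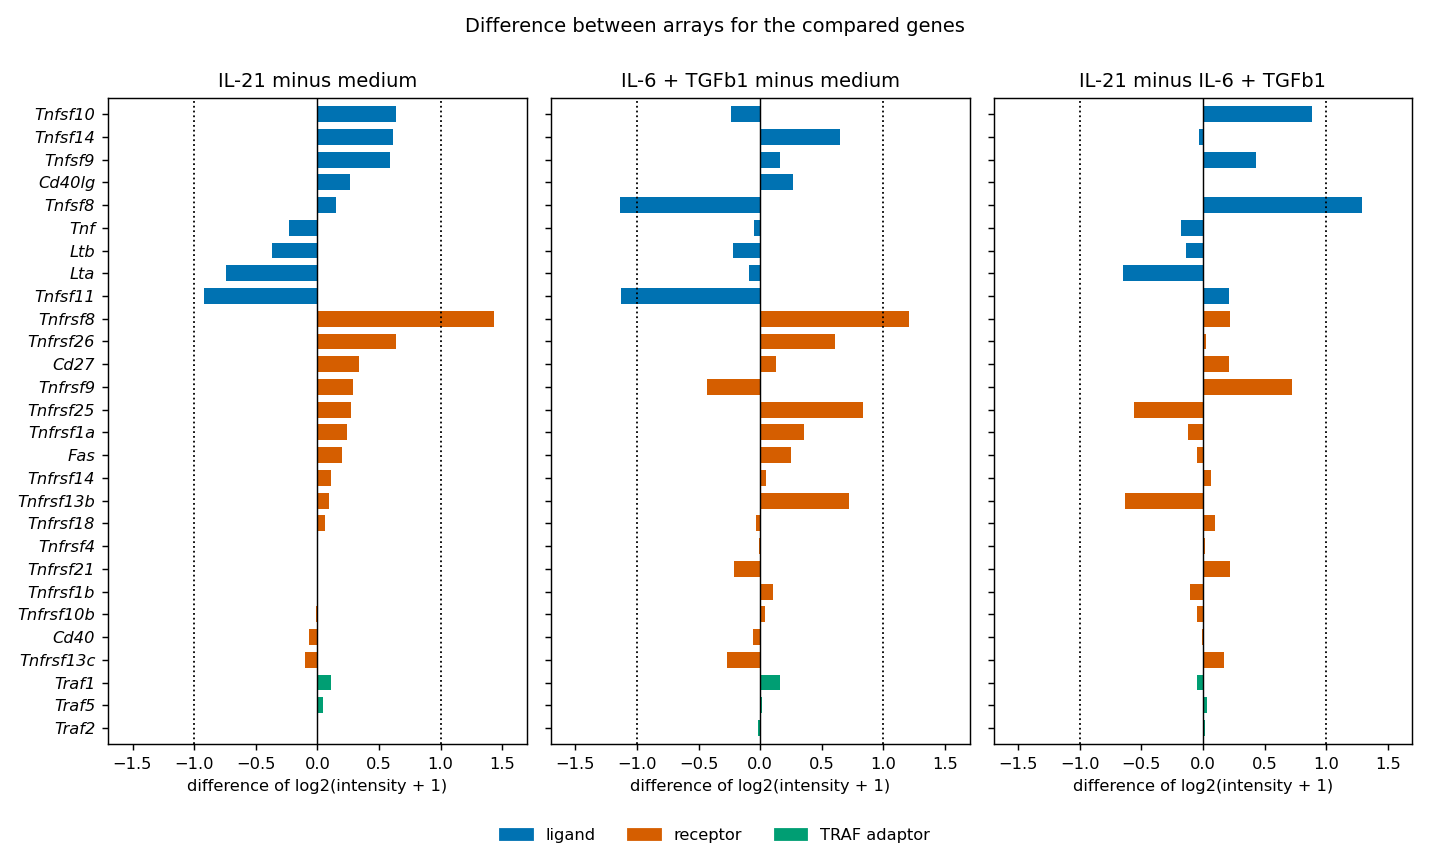
Difference of log2(intensity + 1) in the 3 comparisons for the 28 compared genes, 1 bar per gene, coloured by ligand, receptor or TRAF adaptor, with dotted lines at 2-fold. Tnfrsf8 passes 2-fold in both comparisons with medium, Tnfsf8 and Tnfsf11 pass it on the lower side with IL-6 and TGFb1, and the TRAF bars stay near 0.

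With IL-21, 1 of 28 compared genes of the family was at least 2-fold higher than with medium, Tnfrsf8, against 0.482% of all compared genes. No gene of the family was 2-fold lower, against 0.109%. At the smaller size of 0.5 log2 units there were 7 of 28, or 25%, against 3.83% of all compared genes. These were Tnfrsf8, Tnfsf10, Tnfrsf26, Tnfsf14 and Tnfsf9 on the higher side and Tnfsf11 and Lta on the lower side. The median difference of the 28 was 0.10, against 0.04 over all compared genes. Of the 28, 3 were exactly equal, or 10.7%, close to the 11.6% of all compared genes. At 1.5-fold, 5 of 28 were higher, against 2.04%, and 2 were lower, against 0.5%.

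With IL-6 and TGFb1, 1 of 28 was at least 2-fold higher than with medium, Tnfrsf8 again, against 0.673% of all compared genes. There were 2 at least 2-fold lower, Tnfsf8 and Tnfsf11, against 0.364%. Again 7 of 28 reached 0.5 log2 units, against 4.87%. They were Tnfrsf8, Tnfrsf25, Tnfrsf13b, Tnfsf14 and Tnfrsf26 on the higher side, with Tnfsf8 and Tnfsf11 on the lower. The median difference was 0.03, against 0.02 over all compared genes. At 1.5-fold, 5 of 28 were higher, against 2.61%, and 2 were lower, against 1%. Both comparisons subtract the same medium array, so a gene that stood apart on that array appears in each of them.

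Between the treated cultures, which does not involve the medium array, Tnfsf8 was the 1 gene of 28 at least 2-fold higher with IL-21, against 0.273% of all compared genes. None was 2-fold lower, against 0.191%. At 0.5 log2 units there were 6 of 28, or 21.4%, against 2.04%. Tnfsf8, Tnfsf10 and Tnfrsf9 were higher with IL-21, and Lta, Tnfrsf13b and Tnfrsf25 were higher with IL-6 and TGFb1. The median was 0.02, against 0.00 over all compared genes. At 1.5-fold, 3 of 28 were higher with IL-21, against 0.927%, and 2 were lower, against 0.527%. The effect of adding TGFb1 and that of IL-6 in place of IL-21 cannot be told apart here.

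**Figure D3:**
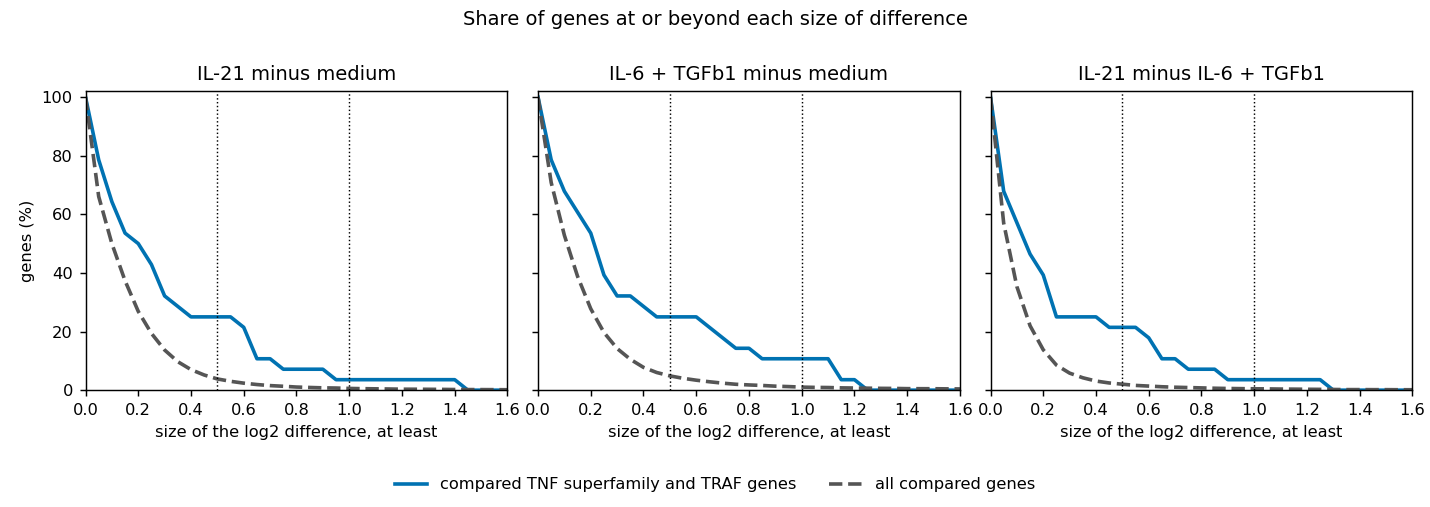
Percent of genes whose difference has at least the size on the x axis (log2 units), for the 28 compared genes of the family (solid) and for all 11003 compared genes (dashed), in the 3 comparisons. At 0.5 log2 units the family is at 25%, 25% and 21.4%, and all genes at 3.83%, 4.87% and 2.04%.

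Ligand and receptor genes of a pair were set side by side. Of 19 pairs known from the family's biology, both genes of 9 pairs were compared. The CD30 pair showed the widest gap of the 9 with IL-6 and TGFb1, with the ligand gene Tnfsf8 at -1.14 and the receptor gene Tnfrsf8 at 1.21. Under IL-21 the same pair was at 0.15 and 1.43. In the CD137 pair, Tnfsf9 and Tnfrsf9 were at 0.59 and 0.29 with IL-21 and at 0.16 and -0.43 with IL-6 and TGFb1. For TRAIL the ligand gene Tnfsf10 was at 0.64 and its receptor gene Tnfrsf10b at -0.01 with IL-21. For LIGHT and HVEM, Tnfsf14 was at 0.62 and 0.65 in the treated cultures and Tnfrsf14 at 0.11 and 0.04. In each of the remaining 10 pairs the ligand gene, the receptor gene or both were under the filter.

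**Figure D4:**
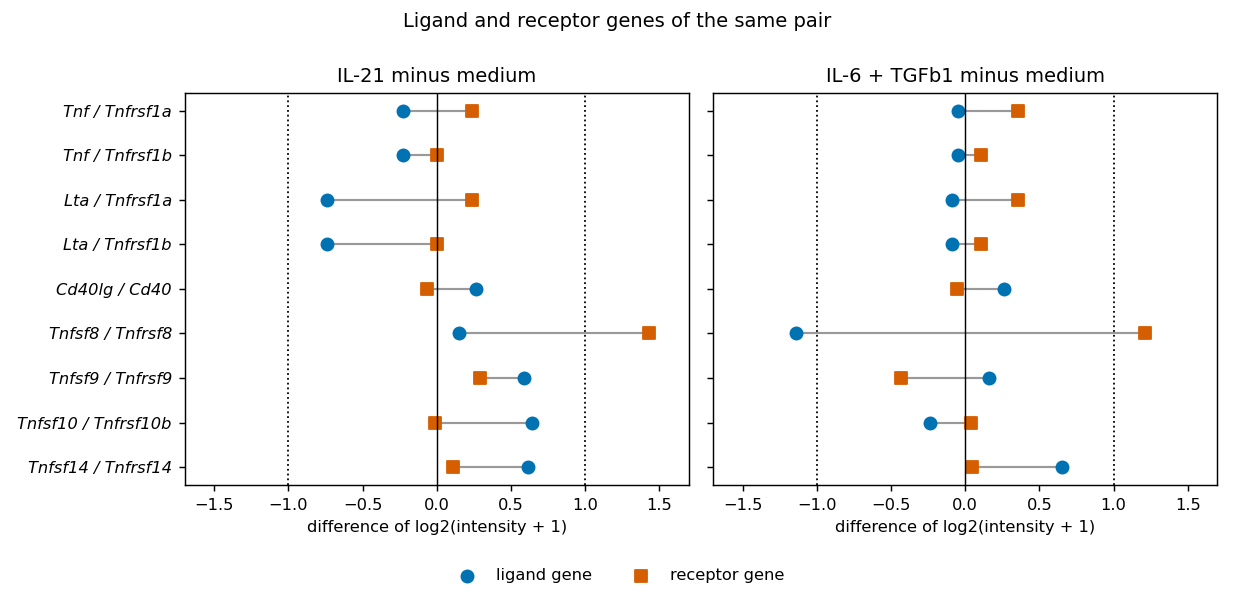
Difference of log2(intensity + 1) from medium for the ligand gene (circles) and the receptor gene (squares) of the 9 pairs with both genes compared, with dotted lines at 2-fold. In the Tnfsf8 and Tnfrsf8 pair both genes are past 2-fold in opposite directions with IL-6 and TGFb1, and with IL-21 only the receptor gene is past it.

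The genes downstream of these receptors were read from a list of 37 adaptors, kinases, caspases and ubiquitin regulators, of which 33 were measured and all 33 were compared. None reached 2-fold in any of the 3 comparisons, although Mlkl passed it under median centring of the arrays. Of all compared genes, 0.482%, 0.673% and 0.273% were at least 2-fold higher and 0.109%, 0.364% and 0.191% lower. A count of none among the 33 listed genes is close to these shares. At 0.5 log2 units there were 2 with IL-21, or 6.06% against 3.83% of all compared genes, and 4 under IL-6 with TGFb1, or 12.1% against 4.87%. All were higher, and none reached that size between the treated cultures, against 2.04%. Mlkl, the effector of necroptosis, had 261 with medium, 520 with IL-21 and 516 under IL-6 with TGFb1, differences of 0.99 and 0.98. Ripk3, the kinase that activates it, had 1293, 1622 and 1954, or 0.33 and 0.60. Map3k5, which encodes the stress kinase ASK1, had 583, 1074 and 1022 (0.88 and 0.81), and Tnip2, a partner of the NF-kB inhibitor A20, had 445, 583 and 671 (0.39 and 0.59). The medium array was the low one for all 4 genes. The list median was 0.17 with IL-21 and 0.18 under IL-6 with TGFb1, against 0.04 and 0.02 over all compared genes, and 0.01 between the treated cultures. The adaptor gene Tradd (0.05 with IL-21), the caspase gene Casp8 (-0.05) and the A20 gene Tnfaip3 (0.18) were close to medium.

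A list of 20 NF-kB subunit and target genes had 18 compared genes, with medians of -0.02, -0.06 and 0.02 in the 3 comparisons. Over all compared genes the medians were 0.04, 0.02 and 0.00. At 0.5 log2 units there were 3, 5 and 2 of the 18, or 16.7%, 27.8% and 11.1%. The shares of all compared genes were 3.83%, 4.87% and 2.04%. Bcl3, an NF-kB cofactor of the IkB family, was at least 2-fold higher in both treated cultures, with 1303, 2828 and 2820. Ier3, an early response gene, had 166 with medium and exactly 301 on both treated arrays, and it was under the filter with medium. The chemokine gene Ccl3 had 4915, 2465 and 1277, 1.99-fold lower with IL-21 (just past 2-fold by quantile normalization) and 3.85-fold lower with IL-6 and TGFb1. Its relative Ccl4 was at -0.38 and -0.61, and Il2 at 0.28 and -0.61. Among the subunits, Rel had 3719, 2691 and 2647 (-0.47 and -0.49), while Nfkb2 was at -0.20 and -0.08, Rela at 0.13 and 0.08 and Relb at 0.02 and 0.12. Of 15 further superfamily and sheddase genes 7 were compared and 7 were under the filter. None of the 7 compared reached 0.5 log2 units, which 3.83%, 4.87% and 2.04% of all compared genes did in the 3 comparisons. With 7 genes, a count of none is close to those shares. Adam17, which encodes the protease that releases TNF, was at 0.19 and 0.15.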

How the data were processed

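Total RNA of 3 cultures was hybridized to 1 array each; per the labels' protocols a service company prepared it after fragmentation and biotin labelling for Affymetrix whole-transcript arrays. The deposited values are intensities on a linear scale, 1 for each of 28815 probe sets, between 25.5 and 20652. The summary and normalization steps applied by the authors are not given in the sources used here. Only mm8 is named as a build, per the submitters' processing notes, and no array coordinate was used.

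Of the probe sets, 21780 had 1 symbol in the platform annotation (1605 several, 5430 none listed), covering 19935 genes, each read from its probe set with the highest mean. The Entrez identifiers of all 36 measured genes of the family matched the RefSeq table (GRCm38.p6, used for names, gene order and promoter windows). Groups came from the labels. Log2(intensity + 1) was taken with no further normalization, and genes with a highest intensity of at least 187 were compared. With 1 array per group no test was run, and precision is limited by the number of arrays. Each gene of the family was accounted for. In the downstream lists up to 6 genes of at least 0.5 log2 units were named by rule, and Tradd, Casp8, Tnfaip3, Adam17, Rel, Nfkb2, Rela and Relb were added after their values were seen. The genes shown by sequence and the motifs were also chosen after their values were seen. The members and lists were chosen with earlier results of these data known. Calculations (Python 3.11.15, numpy 2.4.6, pandas 2.3.3) were tested on simulated data. The alternatives were another offset, a floor on dim values, quantile normalization, median centring, no filter or a stricter one, the mean of probe sets, and a 1.5-fold threshold.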

Additional observations from a re-analysis of the deposited data

How the results depend on the processing

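All 20 differences of at least 0.5 log2 units named for the family kept their sign in each alternative with a value, and the 5 past 2-fold stayed past it. For Tnfrsf8 with IL-21 they ran from 1.32 to 1.498, and for Tnfsf8 with IL-6 and TGFb1 from -1.21 to -1.10. Tnfsf11 with IL-21 came closest to 2-fold from below, at -0.996 by quantile normalization. Tnfsf14 with IL-21 fell just under 0.5 log2 units by quantile normalization, at 0.499, so its place in that count depends on the processing. The other named differences kept at least that size. The mean of probe sets could change nothing, as each gene of the family had 1 probe set. The filter settings only select genes, and the floor of 69.0 lay under every compared gene of the family on each array. Only another offset, quantile normalization and median centring could thus change the 20 differences. The median difference with IL-21, 0.10, was 0.0166 with quantile normalization and 0.00402 with no brightness filter, where all 36 measured genes enter. With IL-6 and TGFb1 the median of 0.03 was -0.03 with quantile normalization and -0.00739 with no brightness filter, so it changed sign, while the IL-21 median stayed above 0 in each alternative run. In the downstream lists, alternatives added after seeing the data gave 1 gene 2-fold higher in place of 0 with median centring in each treated culture, Mlkl at 1.06 and 1.004, and 1 gene 2-fold lower in place of 0 with quantile normalization in the IL-21 culture, Ccl3 at -1.01. The stricter filter, at an intensity of 785, kept 20 of the 28 genes and dropped Tnfsf8, so that 1 gene was at least 2-fold lower with IL-6 and TGFb1 and 0 were 2-fold higher with IL-21 than on the other treated array. At 1.5-fold, 5 genes were higher and 2 lower with IL-21, 5 higher and 2 lower with IL-6 and TGFb1, and 3 higher and 2 lower between the treated cultures. With 1 array a culture, signal over background is limiting for the 8 genes under the filter, and no alternative stands in for replicate cultures.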

Other observations

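Cflar, which encodes c-FLIP, the inhibitor of caspase-8 at death receptors, had 3 probe sets with unequal differences. The brightest, used above for the list, had intensities of 859 with medium, 967 with IL-21 and 941 in the remaining culture, differences of 0.17 and 0.13. Another had 470, 664 and 609, or 0.50 and 0.37. The dimmest had 173, 247 and 241, or 0.51 and 0.48. All 3 were higher on both treated arrays than with medium. Birc2, which encodes the ubiquitin ligase cIAP1, had 2 probe sets at 0.34 and 0.07 for IL-21 minus medium and at 0.23 and 0.18 in the IL-6 and TGFb1 culture.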
